A study of Mus musculus with 12 samples.

Results

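The genes of MHC class I antigen presentation were examined in PD-1+CD44+CD8+ T cells of lupus-prone mice. The set comprised 10 genes, chosen by symbol from the deposited tables, which list 18992 gene identifiers in all. They were *H2-K1*, *H2-D1*, *H2-Q7*, *H2-T22*, *B2m*, *Tap1*, *Tap2*, *Tapbp*, *Psmb8* and *Psmb9*, and all 10 were found in every library. The study sorted these T cells from the NZB/W F1 hybrid, a model in which lupus nephritis develops spontaneously with age, and profiled them by single-cell RNA sequencing with 10x Genomics 5′ chemistry. The 3 groups were spleen at 12 weeks (12W spleen, below the younger spleen), spleen at 28 weeks (28W spleen, the older spleen) and kidney at 28 weeks (28W kidney, below kidney). Female mice were used according to the methods, and the labels name no transgene or agent for any group. The labels list 4 samples for each group, but the tables pool them with no map from cells to samples, so each group was 1 library without a replicate. How many mice stood behind a library is not stated. For the 28W spleen samples, the labelled age is 12 weeks, against their titles, and the titles were followed.

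MHC class I molecules show peptides from inside the cell to CD8+ T cells, and T cells carry them as nearly all nucleated cells do. The proteasome cuts proteins into peptides, the TAP transporter moves these into the endoplasmic reticulum, and tapasin helps to load them onto a heavy chain paired with beta-2 microglobulin. Interferons raise most of these genes together, and interferon gamma in particular exchanges the catalytic subunits of the proteasome for inducible ones, which forms the immunoproteasome.

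The sequence before these genes is shown because class I genes are known for a short upstream control region, read by NF-kB, interferon-regulated factors and a complex that includes NLRC5. RefSeq windows of 300 bases (GRCm38.p6), 250 before the start and 50 from it on, were found for 9 of the 10 genes, without *Tap2*. Both strands were searched for an interferon-stimulated response element-like motif (GAAA, any 2 bases, GAAA), a STAT-type motif (TTCNNNGAA), the NF-kB motif and the core TGACGC, and matches could overlap. Capitals mark the matches in the stretches printed here, which are written 5′ to 3′ on the gene's strand and lie outside annotated UTRs. They come from *H2-K1* at chr17:34000373-34000468 (minus strand), *H2-Q7* at chr17:35439012-35439041 (plus strand), *H2-T22* at chr17:36042914-36042960 (minus strand) and *B2m* at chr2:122147538-122147580 (plus strand).
H2-K1: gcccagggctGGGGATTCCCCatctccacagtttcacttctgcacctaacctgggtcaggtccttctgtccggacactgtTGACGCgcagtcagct
H2-Q7: gcccatggctGGGGATTCCCatctccccag
H2-T22: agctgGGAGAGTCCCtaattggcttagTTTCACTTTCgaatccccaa
B2m: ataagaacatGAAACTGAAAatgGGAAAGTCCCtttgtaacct

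The NF-kB motif was matched in 5 of the 9 genes, *B2m* and all 4 heavy chain genes, against 8.46% of 32851 windows of this length. *H2-K1*, *H2-D1* and *H2-Q7* share the match GGGGATTCCC, which begins 111, 171 and 133 bases before the start. The interferon-type motif was matched in *B2m*, 139 bases before the start, and on the opposite strand of *H2-T22*, 191 bases before it, against 3.44% of windows. TGACGC was matched in *H2-K1* and *H2-D1* (7.4% of windows) and the STAT-type motif in *Psmb8* (8.3%). *Tap1*, *Tapbp* and *Psmb9* held none of the 4 patterns in their windows. A match is a description of the letters and not a binding site, and the reference is the C57BL/6 sequence, not that of NZB or NZW.

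The 3 libraries held 6481 to 7135 cells in 10 to 12 deposited clusters, 33 in all, and 29937384 to 34742303 unique molecular identifiers (UMIs, 1 per captured transcript). Levels are given as UMIs per 1000000 UMIs of the library or cluster (CPM), and 95% intervals cover counting error only. Values of all 3 libraries are given in the order younger spleen, older spleen, kidney. The 6 CD8 T cell markers summed to 4943, 4657 and 5997 CPM with none at 0, while *Cd4* was at 0.345, 0.593 and 3.94 CPM. B cell markers summed to 312, 770 and 3438 CPM and kidney tubule markers to 0.288, 0.437 and 329 CPM, and their part in the library values was not tested. They were concentrated in a few clusters, such as 46979 CPM of B cell genes in kidney cluster 12 and 6062 CPM of tubule genes in kidney cluster 7. Clusters without raised B cell, myeloid, tubule or red cell markers and with at most 5% mitochondrial UMIs are called T clusters here. There were 8 of 10, 8 of 11 and 7 of 12, with 80.2%, 87.1% and 65.4% of the cells. Any pair of libraries shared 52 to 66 cell barcodes.

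Together the 10 genes took up 0.871% of all UMIs in the younger spleen, 1.05% in the older spleen and 1.23% in kidney. Counted per cell, this was 43.9, 52.0 and 51.7 UMIs. The older spleen was above the younger on both scales, whereas kidney was above the older spleen per UMI but not per cell. Mean depth was 5040, 4941 and 4196 UMIs per cell.

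Between the spleens, all 10 genes were higher in the older mice, by small amounts. This was 10 of 10, beside 33.3% of the 7434 genes that reached 10 CPM in a spleen. The median log2 ratio was 0.32, with a range of 0.19 to 0.41, while the median of all genes tested was -0.10. None of the 10 reached a 1.5-fold difference, beside 7.37% of genes tested (4.04% higher and 3.34% lower). Cluster 7 of the younger spleen weighed on these values: without it the median was 0.19, still with 10 of 10 higher. Without the clusters above 10000 UMIs per cell of both spleens it was 0.28, also with 10 of 10 higher. There was no replicate, so no difference between libraries could be tested, and in a library value a changed mix of cells and a changed level within cells cannot be told apart.

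Among the heavy chains, *H2-K1* and *H2-D1* encode classical peptide-presenting chains, *H2-Q7* a Qa-2 chain and *H2-T22* a non-classical chain known as a ligand of some gamma delta T cell receptors. *H2-K1* (chr17:33996017-34000347, minus strand) stood at 2410, 2854 and 3276 CPM. Its log2 ratio was 0.24 by age (95% interval 0.23 to 0.26) and 0.20 by organ, kidney over older spleen (0.19 to 0.21). *H2-D1* (chr17:35262730-35267499, plus strand) ran in parallel, at 2329, 2736 and 3067 CPM. *H2-Q7* (chr17:35439155-35443773, plus strand) was at 187, 244 and 256 CPM, with most of its difference by age (log2 0.38) and little by organ (0.07, interval 0.03 to 0.12). That organ value turned negative on other scales, such as -0.086 with a total free of receptor, immunoglobulin, mitochondrial and ribosomal genes and -0.16 per cell. *H2-T22* (chr17:36037128-36042747, minus strand) was at 283, 343 and 409 CPM.

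Counts of single class I genes carry a further limit. Some of these genes are near-identical copies, the reference genome is C57BL/6, and NZB and NZW carry other H2 haplotypes, so the split of reads between copies is uncertain. *H2-Q10*, known as a liver gene, was listed at 604, 644 and 650 CPM, and *H2-Q2* at 1161, 1437 and 1731 CPM. The 15 H2 heavy chain genes listed summed to 8181, 9638 and 10818 CPM. That sum had a log2 ratio of 0.24 by age and 0.17 by organ, close to *H2-K1* and *H2-D1* alone.

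*B2m* (chr2:122147686-122153083, plus strand), the common light chain and the only 1 of the 10 genes outside chromosome 17, was at 1990, 2517 and 3066 CPM. Its log2 ratio was 0.34 by age (0.32 to 0.35) and 0.28 by organ (0.27 to 0.30). *B2m* therefore differed more than the heavy chain sum in both comparisons. Its share of all *B2m* and heavy chain UMIs, which does not depend on the library total, was 19.6% (95% exact binomial interval 19.4 to 19.7) in the younger spleen, 20.7% (20.6 to 20.8) in the older spleen and 22.1% (21.96 to 22.21) in kidney. In T clusters only the shares were 19.9%, 20.8% and 21.9%.

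The TAP transporter subunits were counted less deeply, with 3636 to 6178 UMIs per library. *Tap1* (chr17:34187553-34197225, plus strand) was at 105, 133 and 174 CPM, with log2 ratios of 0.34 by age (0.28 to 0.41) and 0.39 by organ (0.33 to 0.45). *Tap2* (chr17:34203527-34216321, plus strand) was at 147, 181 and 206 CPM, with 0.30 by age and 0.19 by organ. The share of *Tap1* in the pair was 41.6% and 42.3% in the spleens, with overlapping intervals, and 45.8% (44.9 to 46.7) in kidney.

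*Tapbp* (chr17:33915899-33929292, plus strand), which encodes tapasin, was the exception to the kidney pattern. It was at 158, 210 and 194 CPM, a log2 ratio of 0.41 by age and of -0.11 by organ (-0.16 to -0.06). In T clusters only, its organ value was 0.02, with an interval from -0.04 to 0.08.

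*Psmb8* and *Psmb9* encode inducible catalytic subunits of the immunoproteasome. *Psmb8* (chr17:34197721-34201454, plus strand) was at 796, 906 and 1121 CPM, with a log2 ratio of 0.19 by age (0.16 to 0.21) and 0.31 by organ. *Psmb9* (chr17:34181987-34187764, minus strand) was at 305, 403 and 540 CPM, with log2 ratios of 0.40 by age and 0.42 by organ. Its gene lies head to head with *Tap1*, and the annotated models overlap from 34187553 to 34187764. Whether counting used the strand is not given in the sources used here.

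Between organs at 28 weeks, 9 of the 10 genes were higher in kidney per UMI, beside 61.1% of the 7686 genes that reached 10 CPM in either library. The median log2 ratio of the set was 0.23, and that of all genes tested was 0.08. Again 0 of 10 reached 1.5-fold, beside 15.6% of genes. On the per cell scale the set's median was -0.0085, with 5 of 10 genes higher, and all genes tested then had a median of -0.16. In T clusters only it was 0.38 per UMI, with 10 of 10 higher, and 0.0075 per cell, with 5 of 10 higher.

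The plot of ratios shows how leaving out the other clusters acted on each comparison. By age, restricting to T clusters hardly changed any of the 10 values, and the set's median became 0.33. By organ, every gene moved up. *Tap1* then had the highest organ ratio per UMI, at 0.55 (0.49 to 0.62), followed by *Psmb9* at 0.52, *Psmb8* at 0.45 and *B2m* at 0.41. Kidneys went through a collagenase digestion, the methods do not say how spleens were dissociated, and the part of this step in the organ values was not tested.

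**Figure D1:**
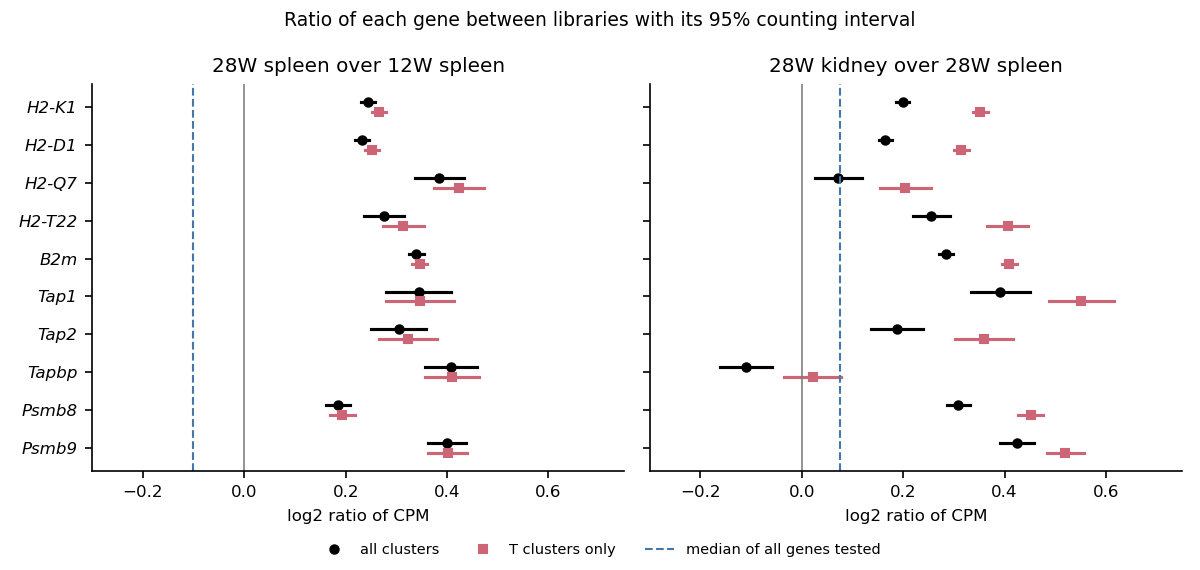
Log2 ratio of CPM (x axis) for each of the 10 genes, for 28W spleen over 12W spleen and 28W kidney over 28W spleen, with 95% counting intervals, over all clusters (circles) and T clusters only (squares). All 10 genes lie to the right of 0 by age, and *Tapbp* alone lies to the left of 0 by organ when all clusters are counted. The dashed line is the median of all genes tested (-0.10 and 0.08).

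Among all genes tested, the age ratios of the set ranked between the 85.4 percentile (*Psmb8*) and the 93.5 percentile (*Tapbp*). By organ the same genes were spread from the 25.6 percentile for *Tapbp* through the 49.5 percentile for *H2-Q7* to the 83.8 percentile for *Psmb9*. The histogram shows these places in both comparisons, which share the 28W spleen library.

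**Figure D2:**
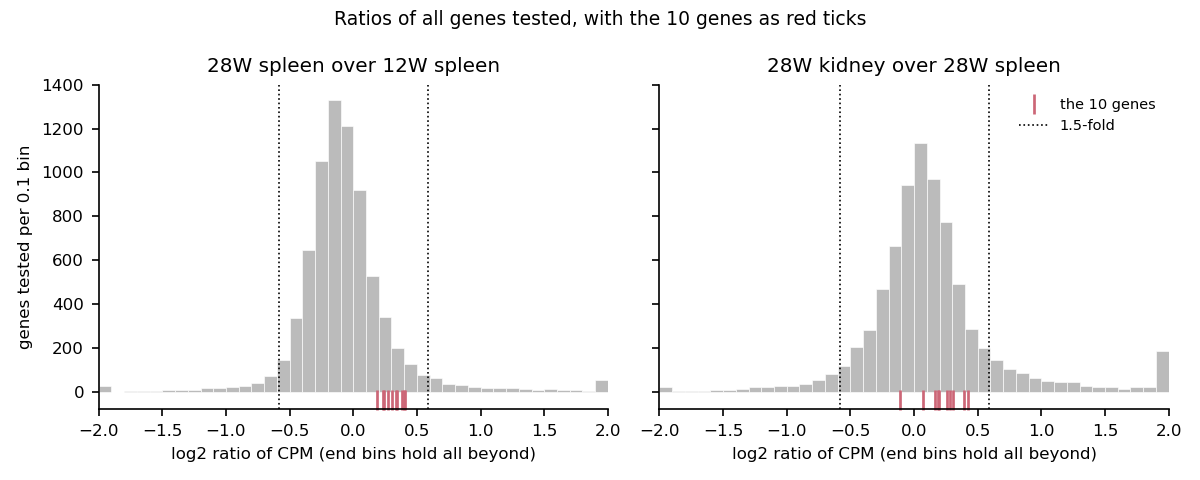
Number of genes tested (y axis) by log2 ratio of CPM in bins of 0.1 (x axis), with the 10 genes as red ticks and the 1.5-fold limits as dotted lines. By age the ticks sit together between 0.19 and 0.41, right of the bulk of genes, and by organ they run from -0.11 to 0.42 across it.

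Within a library the level of a gene varied among clusters. *H2-K1* ranged from 1432 CPM (cluster 7) to 3148 CPM (cluster 2) over the T clusters of the younger spleen, with a median of 2438. In the older spleen it ranged from 1963 (cluster 6) through 3115 to 3396 (cluster 2), and in kidney from 3201 (cluster 5) through 3426 to 4450 (cluster 6). The ranges of the libraries overlap, but 5 of 7 kidney T clusters lay above the highest of the older spleen. In the order of levels, kidney clusters 1, 9, 4, 10 and 5 overlapped with their neighbours in the counting intervals.

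*B2m* ran from 1102 CPM (cluster 7) to 2458 (cluster 2) over the T clusters of the younger spleen, from 1818 (cluster 6) to 2887 (cluster 9) in the older spleen, and from 2966 (cluster 10) to 3763 (cluster 6) in kidney. Every kidney T cluster was thus above every older spleen T cluster per UMI. That held for 1 of the 10 genes, beside 1.2% of genes tested, and the reverse for 0 of 10, beside 0.442%. Per cell the *B2m* ranges of these T clusters overlapped, at 5.40 to 19.3 UMIs in kidney and 4.93 to 22.2 UMIs in the older spleen. By age, 7 of 8 T clusters of the older spleen were above the highest of the younger for *B2m*, with cluster 6 the exception. For none of the 10 genes did the spleens separate fully, beside 0.188% of genes tested with the older spleen above and 0.0673% with it below. Neighbours in the *B2m* order had overlapping intervals in 6 of 7 pairs in the older spleen. The intervals of its clusters 9, 4, 2 and 5 nevertheless lay above those of clusters 1, 3 and 6.

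**Figure D3:**
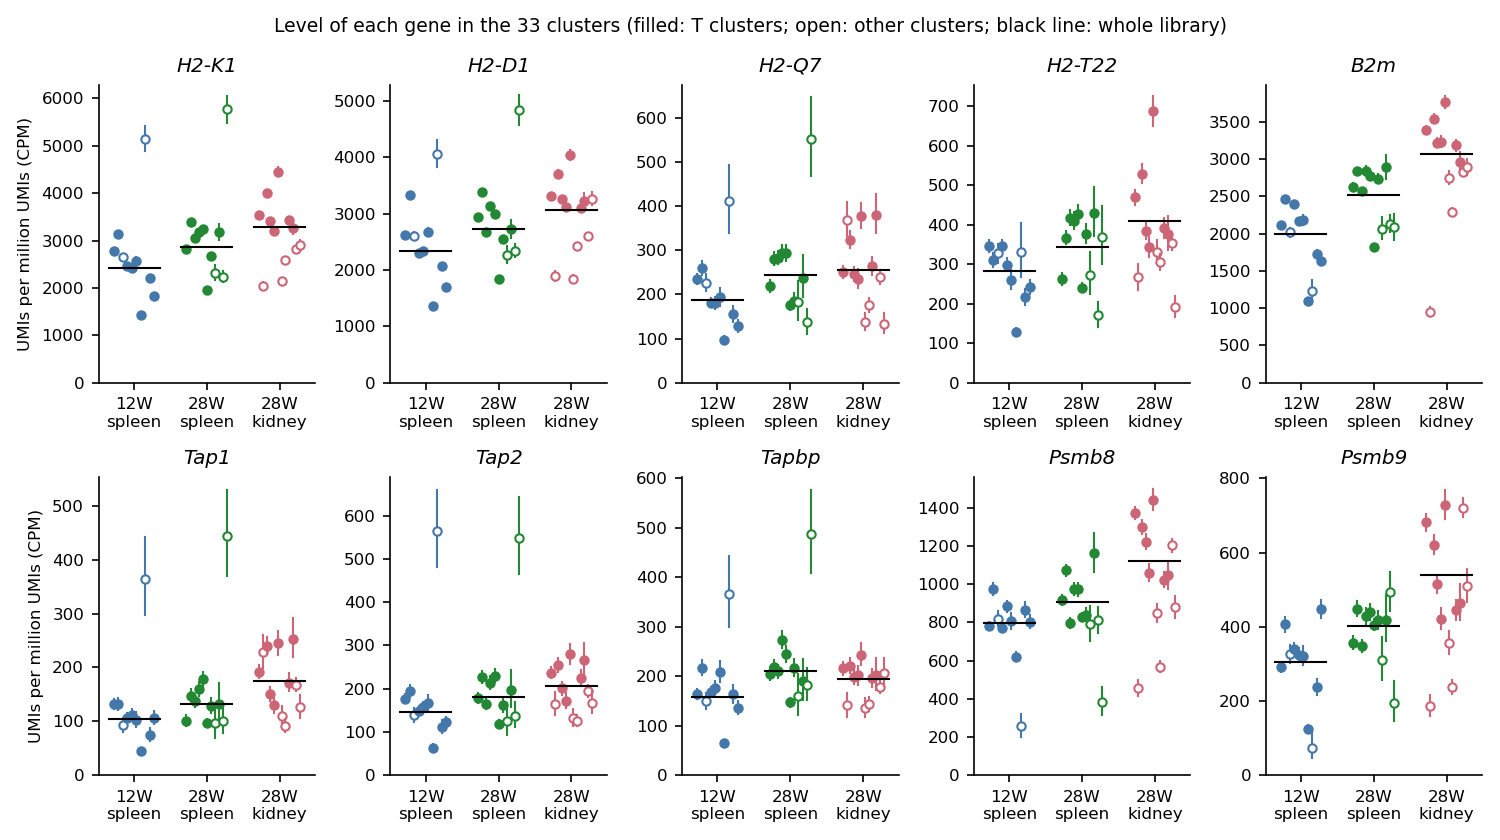
Level of each gene in CPM (y axis, from 0) in every deposited cluster of the 3 libraries, with 95% Poisson intervals; filled points are T clusters, open points other clusters, and the black line is the whole library. *B2m* in kidney T clusters (2966 to 3763 CPM) lies above all 28W spleen T clusters (1818 to 2887 CPM), and 12W spleen cluster 7 is the lowest T cluster of its library for all 10 genes.

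In the younger spleen, cluster 2 was the highest T cluster for 7 of the 10 genes. It had 9465 CPM of the cytotoxic list (*Gzmk*, *Gzma*, *Gzmb*, *Nkg7*, *Ccl5*, *Prf1*), the most in that library, and 891 CPM of type I interferon-stimulated genes (ISGs), 1.80 times the median of its clusters. Against the other T clusters, *H2-D1* was higher there by 0.63 and *H2-Q7* by 0.60 on the log2 scale, and these 2 of 10 genes passed 1.5-fold, beside 9.14% of genes.

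In kidney, cluster 6 was the highest T cluster for 8 of the 10 genes. Its ISG sum was 3914 CPM, 2.68 times the median of the kidney clusters, and its cytotoxic sum 20136 CPM. *H2-T22* was at 687 CPM (651 to 725) there against 435 CPM in the other T clusters, a log2 ratio of 0.66 and the 1 of 10 genes past 1.5-fold, beside 3.91% of genes. The other 9 were higher by 0.18 (*B2m*) to 0.48 (*H2-Q7*), and the median of all genes was 0.01. The kidney cluster with the next highest ISG sum, cluster 10 at 2841 CPM and 1822 UMIs per cell, did not show this. There *H2-Q7* and *Tap1* were higher by 0.46 and 0.42, while 6 of the 10 genes were lower with intervals below 0, *Psmb9* with a log2 ratio of -0.33. Kidney cluster 5 was the lowest T cluster for 6 of the 10 genes, and *Tap1* passed 1.5-fold there (-0.62), beside 17.5% of genes.

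In the older spleen, cluster 4 was the ISG cluster, with 2732 CPM, 2.66 times the library's median. All 10 genes were higher there than in the other T clusters, with a median log2 ratio of 0.25, and the median of all genes was -0.06. *Tapbp* had the highest value, 0.45 (273 against 200.1 CPM), and *Psmb8* and *Psmb9* the lowest, 0.10 each. None was 1.5-fold higher, beside 4.27% of genes. Cluster 9, with the highest cytotoxic sum of the library (20757 CPM) and 1706 UMIs per cell, had *B2m* at 2887 CPM, *H2-T22* at 430.4 CPM and *Psmb8* at 1165 CPM, the top values of the T clusters, with intervals that overlap the next cluster for each. Clusters 2 and 5 were each the highest for 3 other genes. In cluster 5 all 10 genes were higher than in the other T clusters (median 0.24), but the median of all genes there was 0.15. In cluster 2 all 10 had ratios above 1, 9 with intervals above 0 (median 0.22), and the median of all genes was 0.05. The deposited clusters were made from the expression of these same cells, so differences between clusters are a description.

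In the spleens an RNA-rich T cluster had the lowest CPM for all 10 genes (cluster 7 of the younger) or 8 of 10 (cluster 6 of the older, where *Psmb8* and *Psmb9* were lowest in cluster 3), and there the scale decides the order. Cluster 7 of the younger spleen had 13406 UMIs per cell, and all 10 genes had lower CPM than in the other T clusters, by log2 ratios from -0.42 (*Psmb8*) to -1.44 (*Psmb9* and *Tapbp*). There 9 of 10 passed 1.5-fold, beside 31.9% of genes, and *Psmb9* was at 125 CPM against 339 CPM. Per cell, however, the same cluster held 19.2 *H2-K1* UMIs, above the 14.9 of cluster 4. Not every gene turned in this way. Per cell, *Psmb9* (1.67 against 1.79), *Tapbp* (0.858 against 0.919) and *Tap1* (0.589 against 0.602) were still lower there than in the other T clusters, and the other genes of the set were higher. In the older spleen, cluster 6 had 12209 UMIs per cell and 5 of 10 genes past 1.5-fold lower, beside 19.8% of genes, yet the highest number of UMIs per cell of the T clusters for all 10 genes, with 23.97 for *H2-K1* and 22.2 for *B2m*. In the younger spleen that was the cycling cluster 10, for all 10 genes. Cluster 10 held more RNA than cluster 7, at 14345 UMIs per cell. Its median log2 ratio of CPM over the 10 genes was -0.24, against -1.15 in cluster 7.

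Cycling clusters were marked by *Mki67*, *Top2a*, *Stmn1*, *Pclaf*, *Hmgb2* and *Birc5*, which summed to 6183 CPM in cluster 10 of the younger spleen, 3084 in cluster 6 of the older spleen and 9309 in kidney cluster 11. *Psmb9* stood apart from the other 9 genes in them. In cluster 10 of the younger spleen it was at 447 CPM, higher than in the other T clusters by 0.62 and the 1 of 10 genes past 1.5-fold, beside 11.4% of genes, while *H2-Q7* was at -0.55 and *H2-D1* at -0.47. In kidney cluster 11 it was higher by 0.32, while the other 9 genes were between -0.05 and -0.39. In cluster 6 of the older spleen it was at 0.01, with the other 9 between -0.17 and -0.72. Kidney cluster 11 also carried raised B cell (925 CPM) and red cell (1809 CPM) transcripts and was not among the T clusters.

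In the spleens, the low-RNA clusters rich in mitochondrial transcripts split the set by gene. In cluster 8 of the younger spleen, with 928 UMIs per cell and 8.98% mitochondrial UMIs, *Tap2* was at 565 CPM against 144 in the T clusters and *Tap1* at 365 against 103. *H2-K1* was at 5150 CPM (4890 to 5421) against 2369. By contrast *B2m* was at 1236 against 1994, *Psmb8* at 256 against 799 and *Psmb9* at 73.7 against 306, from 21 UMIs. The same split was seen in cluster 11 of the older spleen, with 1288 UMIs per cell and 6.64% mitochondrial UMIs, where *Tap1* was higher by 1.76 and *Psmb8* had a log2 ratio of -1.26.

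In these clusters most genes of the table were shifted, and the counts past a fold have to be read beside that. In cluster 8 of the younger spleen, 6 of 10 genes were 1.5-fold higher and 3 lower, beside 59.3% and 19.2% of all genes, whose median was 0.95. In cluster 11 of the older spleen, 6 were higher and 2 lower, beside 56% and 16.6%, with a median of 0.80. The share of *B2m* in *B2m* plus heavy chain UMIs, which cancels only a shift common to both, was 7.06% (6.37 to 7.81) and 10.3% (9.47 to 11.1) in these clusters, whereas T clusters of the spleens held 18.2% to 23.2%. In kidney cluster 2, with 10.8% mitochondrial UMIs and raised B cell, tubule and red cell markers, it was 12.3% (11.52 to 13.01). *B2m* was at 955 CPM there, the lowest of the 33 clusters, and 7 of 10 genes were 1.5-fold lower, beside 29.2% of genes. Kidney cluster 2 did not show the split of the spleen clusters. *H2-K1* (-0.83), *Tapbp* (-0.59) and *Tap2* (-0.49) were lower there than in T clusters, and only *H2-Q7* (0.39) and *Tap1* (0.25) were higher.

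Most other clusters with markers of other cells had lower levels. In kidney cluster 7, marked by tubule and B cell genes, all 10 genes were lower than in T clusters, by log2 ratios of -0.29 (*B2m*) to -1.04 (*H2-Q7*), 7 of 10 past 1.5-fold, beside 23.7% of genes. In kidney cluster 8, with 15936 CPM of B cell genes, all 10 were lower as well, 6 past 1.5-fold beside 30.9% of genes, with *Psmb9* lowest at -1.29. Kidney cluster 12, with B cell and myeloid markers, had *H2-D1* (-0.06) and *Tapbp* (-0.03) near the T clusters, and 3 of 10 genes past 1.5-fold lower, beside 20.4% of genes, with *H2-T22* (-1.26) and *H2-Q7* (-1.08) the lowest. *H2-T22* was also the lowest gene in the B cell-marked cluster 10 of the older spleen, at -1.03. There 2 of 10 were 1.5-fold lower, beside 27.3% of genes, and *Psmb9* was higher by 0.29. Cluster 8 of the older spleen had red cell, B cell and myeloid markers, 1020 UMIs per cell and 1.71% mitochondrial UMIs. All 10 genes were lower there, from -0.21 (*Psmb8*) to -0.52 (*Tap2*), with 0 of 10 past 1.5-fold, beside 20.5% of genes. Cluster 3 of the younger spleen, with red cell, B cell and myeloid markers, was an exception, with a median of 0.06 over the 10 genes.

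**Figure D4:**
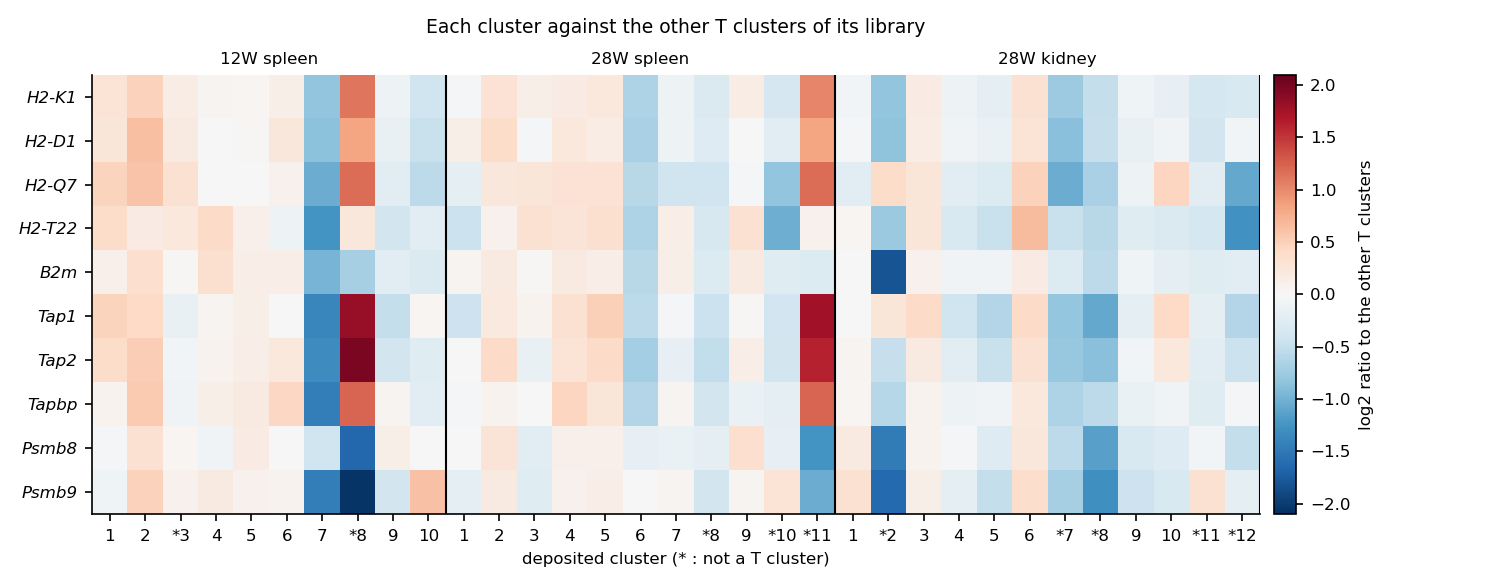
Log2 ratio of CPM of each gene (down the map) in each deposited cluster (across it) to the other T clusters of the same library, from blue (lower) to red (higher); asterisks mark clusters that are not T clusters. The low-RNA spleen clusters rich in mitochondrial transcripts, 8 in 12W and 11 in 28W, are red for *Tap1*, *Tap2*, *Tapbp* and *H2-K1*. They are blue for *B2m*, *Psmb8* and *Psmb9*. Cluster 7 of 12W spleen and the low-RNA cluster 8 of 28W spleen are blue for all 10 genes.

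Each inducible proteasome subunit replaces a constitutive partner, *Psmb8* for *Psmb5*, *Psmb9* for *Psmb6* and *Psmb10* for *Psmb7*. The inducible share of a pair does not depend on the library total, and it was higher in the older than in the younger spleen for all 3 pairs. *Psmb8* made up 77.3% (76.9 to 77.7) of its pair in the younger spleen, 82.3% (81.9 to 82.7) in the older spleen and 84.6% (84.2 to 84.9) in kidney. *Psmb9* made up 59.8% (59.0 to 60.5), 71.8% (71.1 to 72.4) and 74.8% (74.3 to 75.4). The *Psmb9* pair thus differed most by age. *Psmb10* made up 73.8%, 80.8% and 82.0%, and its spleen and kidney intervals at 28 weeks overlap (80.0 to 81.6 and 81.2 to 82.7). Without cluster 7 of the younger spleen its shares were 80.5%, 65.7% and 77.8%, nearer to those of the older spleen but below them for all 3 pairs. In T clusters only, the kidney shares were 86.1%, 77.7% and 84.4%.

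Both sides of the pairs differed with age. The constitutive partners were lower in the older spleen, with log2 ratios of -0.27 for *Psmb5*, -0.37 for *Psmb6* and -0.25 for *Psmb7*, and the inducible subunits were higher. Cluster 7 of the younger spleen weighed on the partner values, at 436, 387 and 122 CPM. The other T clusters of that library stood at 202, 177 and 56.5 CPM, and all T clusters of the older spleen at 195, 159 and 54.3 CPM. The latter include the RNA-rich cluster 6, at 299, 257 and 83.6 CPM. Without it the older spleen's T clusters stood at 168, 133 and 46.4 CPM. By organ the partners were higher too per UMI, by 0.08, 0.20 and 0.20, but lower per cell (0.960 to 0.860, 0.783 to 0.762 and 0.270 to 0.263 UMIs). Of the 14 genes of the constitutive core (*Psma1* to *Psma7* and *Psmb1* to *Psmb7*), 0 of 14 were higher by age per UMI or per cell, with a median of -0.25 per UMI, beside 33.3% of genes tested. By organ 14 of 14 were higher per UMI, with a median of 0.18, beside 61.1% of genes tested, and 3 of 14 per cell.

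Among clusters, the lowest inducible shares were in the RNA-rich cluster 7 of the younger spleen. They were 58.7% for *Psmb8*, 24.3% (22.7 to 26.0) for *Psmb9* and 48.6% for *Psmb10*, each the lowest of all clusters. Cluster 10 of that library, with more UMIs per cell than cluster 7, was at 76.7%, 65.2% and 68.6%. The highest *Psmb9* shares of the older spleen and kidney were in the ISG clusters, 79.8% (77.9 to 81.5) in cluster 4 and 84.2% (82.3 to 85.9) in kidney cluster 6. *Psmb8* was also highest there, at 87.3% and 89.3%, though kidney cluster 10 was at 89.3% as well. In the older spleen the intervals of cluster 4 overlapped those of other clusters for both genes, such as cluster 5 at 85.9% for *Psmb8* and 77.7% for *Psmb9*. *Psmb10* was highest in cluster 9 of the older spleen (91.3%, 85.6 to 95.3), with 86.4% in cluster 4, and in kidney cluster 6 (87.5%). The cycling cluster 6 was the lowest T cluster of the older spleen for *Psmb8* (73.5%), *Psmb9* (61.2%) and *Psmb10* (70.01%).

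**Figure D5:**
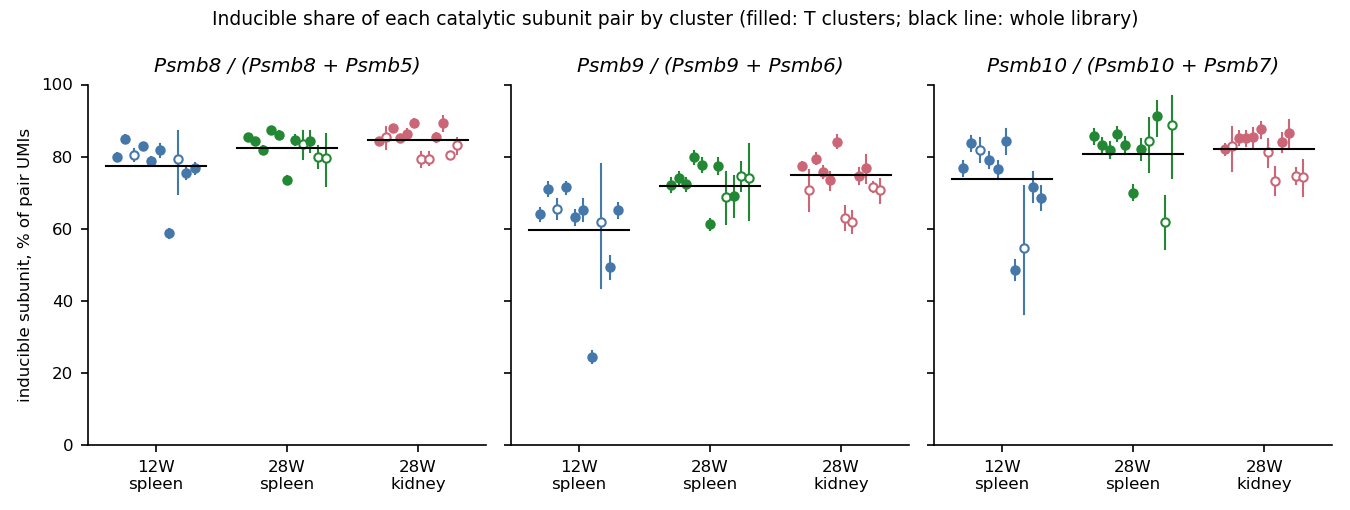
Percent of the UMIs of each catalytic subunit pair that came from the inducible subunit (y axis, 0 to 100) in every cluster, with 95% exact binomial intervals; filled points are T clusters and the black line is the whole library. The whole-library share of *Psmb9* was 59.8%, 71.8% and 74.8% from left to right, and 12W spleen cluster 7 is the lowest cluster of all 3 pairs.

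Other genes of the pathway were less uniform than the 10. Of 12 further heavy chain genes found, 8 were higher by age, beside 33.3% of genes tested, with a median log2 ratio of 0.08, and 0 reached 1.5-fold, beside 7.37%. *H2-T24* had the highest ratio (0.55, from 10.6 to 15.5 CPM) and *Cd1d1*, which presents lipids, the lowest (-0.44, from 28.0 to 20.7 CPM). *H2-T23*, which encodes the Qa-1 chain, was at 343, 451 and 477 CPM. By organ 7 of 12 were higher per UMI, near the 61.1% of genes tested, and 4 of 12 per cell. Of the 10 that reached 10 CPM, 2 were 1.5-fold higher, beside 11.3% of genes tested, and 0 were 1.5-fold lower, beside 4.24%. *Fcgrt*, the neonatal Fc receptor chain, had the highest ratio (0.80, from 8.34 to 14.5 CPM) and *H2-T3* the lowest (-0.61, from 4.59 to 3.01 CPM, on 147 and 90 UMIs, under the 10 CPM minimum).

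In peptide supply, *Psme1* and *Psme2*, the subunits of the inducible proteasome activator, were higher by 0.17 and 0.08 by age, and *Psme3*, which forms another activator, had a log2 ratio of -0.32. *Psmb10* was highest of this list in both comparisons, at 0.33 and 0.31, and *Psmb6* lowest by age at -0.37. By organ *Psme3* was lowest at -0.27. *Erap1*, a peptide trimming enzyme, was at 48.3, 45.6 and 51.9 CPM.

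The other loading genes differed from *Tapbp*. *Calr*, *Canx* and *Pdia3*, chaperones of the loading complex, had log2 ratios of -0.0041, -0.23 and -0.05 by age and 0.34, 0.10 and 0.46 by organ. *Tapbpl*, a relative of tapasin that edits peptides, was the highest of the list by age (0.28) and at 0.45 by organ, at 59.9, 72.9 and 99.6 CPM. These 4 were higher in kidney per UMI, beside 61.1% of genes tested, and 3 of 4 per cell, without *Canx*.

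The regulators had a median of 0.50 by age, the highest of the pathway lists. *Irf1* and *Stat2*, which act in interferon signalling, had age ratios of 0.62 and 0.64. *Nlrc5*, the class I transactivator, was at 32.5, 47.4 and 63.7 CPM, with 0.55 by age and 0.43 by organ. *Rfx5*, of the complex that binds class I promoters, had the lowest ratio by age (-0.39) and the highest by organ (0.66), at 6.76, 5.15 and 8.12 CPM, under the 10 CPM minimum in all 3 libraries. *Rfxank* was also lower by age (-0.39, interval -0.57 to -0.21), from 17.5 to 13.4 CPM, above that minimum. *Irf2*, *Rfxap* and *Irf9* had age ratios of 0.04, 0.15 and 0.50. By organ 0 of the 8 regulators that reached 10 CPM were 1.5-fold higher, beside 11.3% of genes tested.

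ISGs and interferon gamma-induced genes differed more than the 10 genes. The 12 ISGs had a median log2 ratio of 1.18 by age and 0.56 by organ. Of the 11 that reached 10 CPM, 11 were 1.5-fold higher by age, beside 4.04% of genes tested, and 6 by organ, beside 11.3%. The 8 interferon gamma-induced genes had medians of 0.81 and 0.33. These values are per UMI. Per cell the medians were 1.15 by age and 0.32 by organ for ISGs, and 0.78 and 0.09 for interferon gamma-induced genes. Without the ISG clusters the age median of the 10 genes was 0.29, with 10 of 10 higher, and the organ median 0.20. No cluster of the younger spleen met the limit of 2 times the median ISG sum.

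Across clusters the 10 genes varied together in T clusters and less so elsewhere. Over the 23 T clusters, pairwise correlations of log2(CPM + 10), centred within each library, ran from 0.48 to 0.97 with a median of 0.75 over 45 pairs. *H2-K1* with *H2-D1* had the highest value, and *H2-Q7* with *Psmb8* or *Psmb9* the lowest. Over all 33 clusters the range was -0.35 to 0.97, with *Tap1* and *Psmb8* the lowest. *Tap1* and *Psmb9*, the head-to-head pair, had 0.74 over T clusters and -0.18 over all clusters. Clusters share their library, cells and depth, so these values are a description.

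The mean profile of the 10 genes was set beside marker lists in the same way. Over T clusters, Pearson's r was 0.83 with the interferon gamma list, 0.74 with the ISG list, 0.62 with the cytotoxic list, 0.07 with the memory list and -0.28 with the proliferation list. It was 0.88 with the CD8 T cell markers and -0.60 with UMIs per cell, so RNA content moved with the profile as well, and its part was not tested. Spearman's rho ordered the lists otherwise, at 0.83 for ISGs, 0.81 for interferon gamma, 0.71 for CD8 T cell markers and 0.67 for the cytotoxic list. For memory, proliferation and UMIs per cell it was -0.20, -0.18 and -0.56.

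The genes with the most similar profiles over all 33 clusters, of 2253 with at least 50 CPM in each library, were *H2-M3* (r = 0.92), *Mfap1a* (0.92), *Sp100* (0.90), *Selplg* (0.90), *Tapbpl* (0.89), *S1pr4* (0.88), *St3gal6* (0.87), *Laptm5* (0.87), *AI467606* (0.87) and *Ms4a6b* (0.87). *H2-M3* encodes a class I chain that presents formylated peptides, at 66.7, 82.5 and 102 CPM. Over T clusters only, *Irf9* came first (r = 0.96) and *H2-M3* next (0.95).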

How the data were processed

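Single-cell RNA sequencing had been run on sorted T cells. For each of 3 groups the authors deposited the cluster of each cell barcode and the mean UMI count of each gene per cluster, a size-normalised value. Columns of the authors' own log2 fold changes and adjusted p-values were not used. Per the labels, Cell Ranger 2.1.1, R 3.6.1 and GRCm38 were used; the annotation release, cell filters and doublet treatment are not given in the sources used here, and no doublet caller was run. Receptor clonotypes were not used here.

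Within each deposited column values are whole multiples of 1 step, and dividing by it returned whole UMIs for 100% of values (within 0.001). UMIs were summed per library and divided by the library total (CPM), since the tables had been normalized separately. Log2 ratios without a pseudocount had exact conditional binomial 95% intervals, levels exact Poisson and shares exact binomial intervals, all for counting error only. Genes that reached 10 CPM in a compared library counted as tested, and a difference counted as called at 1.5-fold, with no p-value because each group was 1 library. A marker list was raised in a cluster at 5 times the library's median and 500 CPM, and the ISG list at 2 times the median.

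The members and lists were chosen with earlier results of these data known. The genes named are the 10 members, the listed pathway genes and the 10 genes with the most similar profile; *H2-T10* of the heavy chain list was not among the symbols found. A gene of the regulator list is not reported here. Coordinates come from GENCODE M21 (GRCm38), promoter windows from RefSeq (GRCm38.p6). The ratios and intervals were tested on simulated data. Python 3.11.15, numpy 2.4.6, pandas 2.3.3, scipy 1.17.1 and matplotlib 3.10.9 were used.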

Additional observations from a re-analysis of the deposited data

How the results depend on the processing

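No paired analysis was possible because each group was 1 pooled library, and for the same reason no replicate could be left out. By age the median log2 ratio of the 10 genes (0.32) kept its direction under each alternative run, with 10 of 10 genes above 1 in each. It was 0.42 after scaling by the median gene ratio and 0.21 with deposited means weighted by cells. It was 0.19 without 12W spleen cluster 7, an RNA-rich cluster that had the lowest levels, and 0.28 without clusters above 10000 UMIs per cell. By organ the median (0.23) was 0.15 after scaling by the median gene ratio, 0.069 with a total free of T cell receptor, immunoglobulin, mitochondrial and ribosomal genes, and 0.13 with means weighted by cells. It was 0.37 without B cell, myeloid or tubule clusters, also 0.37 without red cell clusters too, 0.38 in T clusters only, 0.32 in T clusters scaled by the median gene ratio, 0.0075 in T clusters per cell, 0.15 without clusters above 10000 UMIs per cell, and reversed to -0.0085 per cell. Per cell, the organ values of *H2-K1* (-0.037), *H2-D1* (-0.071), *H2-Q7* (-0.16) and *Tap2* (-0.048) reversed, and in T clusters per cell they were -0.023, -0.061, -0.17 and -0.016. *H2-Q7* also reversed to -0.0033 when scaled by the median gene ratio, to -0.086 with the reduced total and to -0.011 without clusters above 10000 UMIs per cell. *Tapbp* reversed to 0.0041 without B cell, myeloid or tubule clusters, with or without red cell clusters, and to 0.021 in T clusters. The kidney shares of *Psmb8*, *Psmb9* and *Psmb10* moved to 86.1%, 77.7% and 84.4% without B cell, myeloid or tubule clusters. Those of the younger spleen moved to 80.5%, 65.7% and 77.8% without its cluster 7. Of the 10 genes with the most similar profile, 5 were shared when clusters of other cells were left out. The count past 1.5-fold stayed at 0 under every alternative in both comparisons. The cause of these moves was not tested. The restriction to T clusters, the removal of RNA-rich clusters and of cluster 7, and the T cluster values on other scales were chosen after seeing the data.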
